A study of Mus musculus with 5 samples.

Results

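The chemokine genes described here are Ccl2, Ccl5, Ccl7, Cxcl1, Cxcl5, Cxcl10, Cxcl12, Cxcl15 and Cx3cl1, 9 of the 18194 genes measured. These genes were chosen by name, but with earlier results of these data known, so counts of them called are not independent of the choice. They were read on the 17 probe sets, of 45101 in all, that the array annotation assigns to one of these symbols alone. The RNA came from mouse NIH/3T3 fibroblasts, an established line, stably infected with retroviruses made from 2 vectors, pBSwitch and pSLHGC-MYC-AUF1 p42. With mifepristone this GeneSwitch system expresses myc-tagged AUF1 p42, an isoform of a protein that binds AU-rich elements (AREs) in 3'UTRs. RNA-protein complexes were precipitated with anti-c-myc agarose beads (RNP-IP) from cells given 1 nM mifepristone for 24 h (2 RNP-IPs, called induced-labelled below) and from the same cells without induction (2 RNP-IPs, called uninduced-labelled below), and total RNA of the cells gave the fifth array. All these cells had been selected in the presence of mifepristone after infection, and the sources used here do not tell if the total RNA was taken with or without induction. The labels do not say that the RNP-IPs of a group came from separate cultures, so p-values measure the spread between these precipitates only.

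Chemokines are small secreted proteins that guide leukocytes through G protein-coupled receptors, and they bind heparan sulfate on cell surfaces. The spacing of the first conserved cysteines divides them into the CC, CXC and CX3C classes. Fibroblasts are a known source of Ccl2, Cxcl1 and Cxcl12, and several inflammatory chemokine mRNAs are known to be short-lived and to carry AREs. An RNP-IP measures which mRNAs come down with the beads, so a signal describes the precipitate and not the cell. The same mass of RNA was labelled from each sample, and the values were normalized. A signal is thus relative to the other RNA of its sample, and like signals need not mean like amounts on the beads. The study reports a lower RNA concentration in the RNP-IPs of control cells. The total RNA array gives the relative level in the cells. In these bulk samples, fewer cells that make an mRNA and less of it per cell cannot be told apart.

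Hnrnpd encodes AUF1. Its signal was 6.72 and 7.39 (log2) in the induced-labelled RNP-IPs, 11.35 and 11.85 in the uninduced-labelled ones and 10.60 in total RNA. The RNP-IP values are relative to the other RNA of each precipitate, so they do not show how strongly the cells expressed Hnrnpd. Whether this signal includes mRNA made from the vector was not tested. Il6, an interleukin whose mRNA carries AREs, was at 6.24 and 7.90 in the induced-labelled RNP-IPs, 5.60 and 3.84 in the uninduced-labelled ones and 4.15 in total RNA, and so was highest under the induced label. The RNP-IPs go by their labels here. The labels themselves were not tested, and each direction below rests on them. The 5' control probe set of Gapdh, a sign of cDNA length, was at 8.18 and 4.24 in induced-labelled RNP-IPs 1 and 2, 3.65 and 7.82 in uninduced-labelled RNP-IPs 1 and 2 and 6.93 in total RNA, so that induced-labelled RNP-IP 2 and uninduced-labelled RNP-IP 1 stood apart. Of 12 fibroblast markers measured, 11 were above log2 6 in every array. None of 9 leukocyte or 6 endothelial markers exceeded log2 6 in any array, and of 6 epithelial and 3 adipocyte markers only Epcam and Fabp4 did. The summed log2 signals of the fibroblast markers were 124.6 and 127.4 in the induced-labelled RNP-IPs, 129.4 and 130.2 in the uninduced-labelled ones and 131.2 in total RNA. Those of the leukocyte markers were 35.7 to 36.3, 33.8 to 35.0 and 34.6 in the same order. For the endothelial markers they were 19.6 to 20.0, 19.1 to 20.3 and 19.6, and for the adipocyte markers 15.2 to 16.9, 14.4 to 15.0 and 12.9. The sums of the fibroblast, leukocyte and adipocyte lists did not overlap between the labels. Of all single probe sets, 15.5% had both induced-labelled RNP-IPs above both uninduced-labelled ones, and 15.8% had both below. The leukocyte medians were only 3.48 to 4.17 per array, and Fabp4 was the only adipocyte marker above log2 6. The part of these lists in the results below was not tested. The log2 signals of the 6 epithelial markers summed to 25.8 and 26.2 in the induced-labelled RNP-IPs, 25.1 and 26.4 in the uninduced-labelled ones and 26 in total RNA. Array medians ran from 3.77 to 3.83, and signals under log2 5, 69.7% to 70.8% of the probe sets per array, are called near background here.

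Of the 9 chemokine genes, 7 reached log2 5 in at least 1 array. Cxcl1, Cxcl5 and Cxcl12 were above log2 6 in all 5 arrays. Ccl2 was between 5.73 and 8.51. Cxcl15 was near background in total RNA and above log2 7 in every RNP-IP, and Ccl7 reached 5.90 in total RNA alone. Cx3cl1 reached 5.57 in total RNA on 1 of its 4 probe sets. Ccl5 and Cxcl10 stayed under log2 5 everywhere. Of the 17 probe sets, 6 were above log2 6 in every array, 6 were under log2 5 in every array and 5 lay between.

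**Figure D1:**
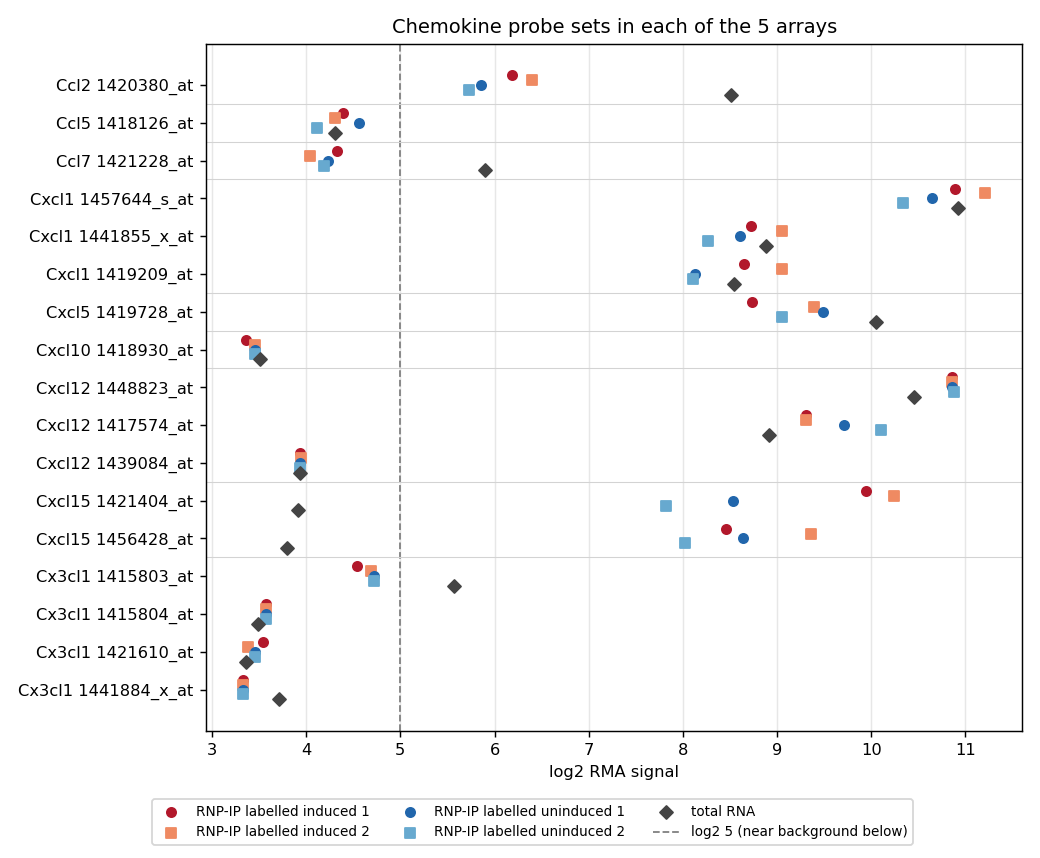
Log2 RMA signal (horizontal axis) of the 17 chemokine probe sets, 1 per line, with each marker 1 array and the dashed line at log2 5. Both Cxcl15 probe sets lie at 7.83 to 10.24 in the 4 RNP-IPs and at 3.91 and 3.79 in total RNA, while Ccl2 is at 8.51 in total RNA and at 5.73 to 6.40 in the RNP-IPs.

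All probe sets were compared in 4 ways by limma, and a probe set was called where the fold was 3 or more and the p, adjusted by the Benjamini-Hochberg method, was under 0.5, the thresholds of the study. Against the 3 controls together (uninduced-labelled RNP-IPs and total RNA), 0 of the 17 chemokine probe sets were called in the induced-labelled RNP-IPs, beside 2.82% of all probe sets (1.16% higher and 1.66% lower). Of the 17, 1 (Cxcl1) had an unadjusted p under 0.05. Against the uninduced-labelled RNP-IPs alone 1 of 17 was called, a probe set of Cxcl15 that was higher, beside 3.14% of all (1.23% higher and 1.91% lower). Against total RNA 4 of 17 were called both in the uninduced-labelled RNP-IPs (1.82% of all, 0.891% higher and 0.933% lower) and in the induced-labelled ones (4.61% of all, 1.53% higher and 3.07% lower), and in each they were the 2 probe sets of Cxcl15, higher, and those of Ccl2 and Ccl7, lower. The last pair of comparisons shares the single total RNA array, and for it the spread of the RNP-IPs was taken. No probe set of the array had an adjusted p under 0.05 in any of the 4 comparisons, while 4836 to 6259 had an unadjusted p under 0.05.

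**Figure D2:**
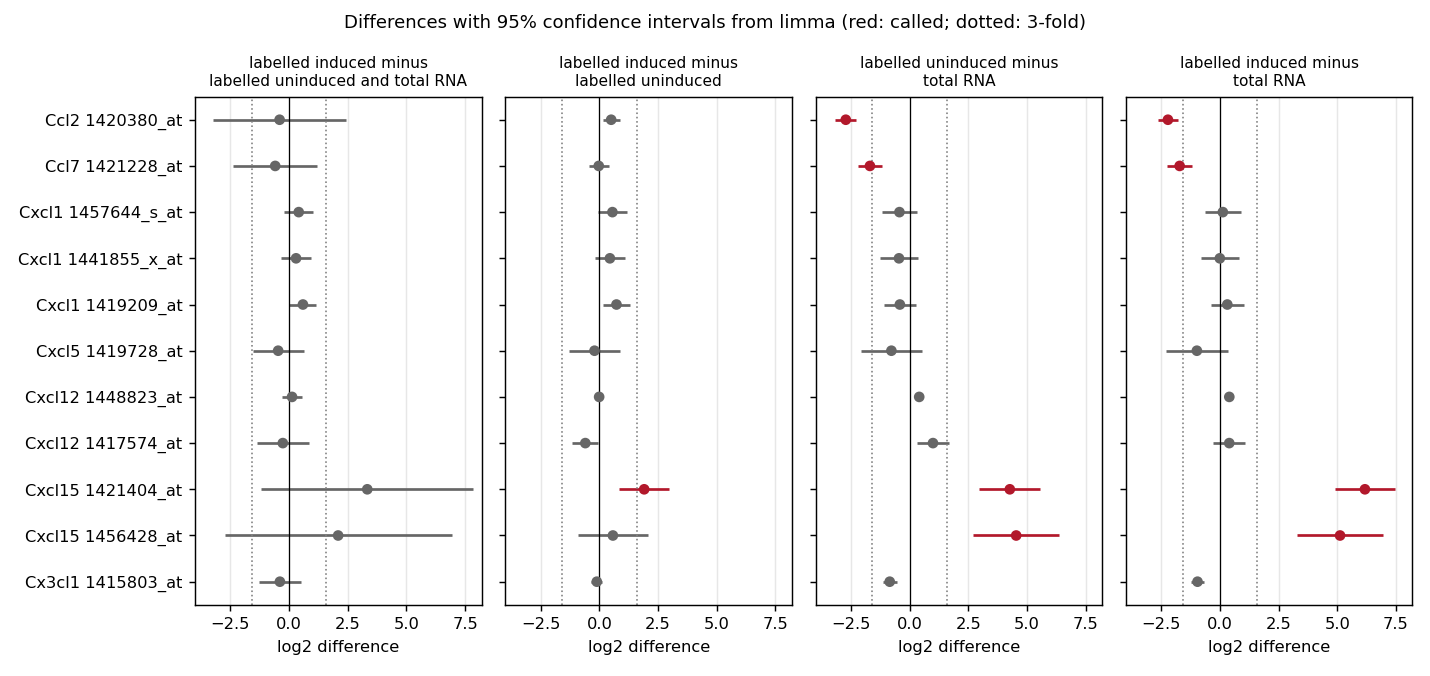
Log2 differences (horizontal axis) of the 11 chemokine probe sets that reach log2 5 in an array, with 95% confidence intervals from limma, in the 4 comparisons. Called probe sets are red and the dotted lines mark 3-fold; the measured values of Cxcl15 lie 4.27 and 4.54 above total RNA, itself near background, in the uninduced-labelled RNP-IPs, and Ccl2 lies at -2.72.

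Cxcl15 encodes lungkine, a CXC chemokine that attracts neutrophils and is best known from mouse lung epithelium. Its probe set 1421404_at was at 9.94 and 10.24 in the induced-labelled RNP-IPs, 8.53 and 7.83 in the uninduced-labelled ones and 3.91 in total RNA. The 3 kinds of sample did not overlap, with the induced-labelled RNP-IPs the highest and total RNA near background. Of all probe sets, 15.5% had both induced-labelled RNP-IPs above both uninduced-labelled ones, and 21.1% had all 4 RNP-IPs above total RNA. Against the uninduced-labelled RNP-IPs alone the log2 difference was 1.91 (SE 0.32, adjusted p = 0.245), a fold of 3.76. This call ended without uninduced-labelled RNP-IP 2 (log2 1.56). Among RNP-IPs with a like Gapdh 5' signal, the difference was 2.12 between those with the high signal and 1.71 between those with the low one. Against the 3 controls together the log2 difference was 3.33 (SE 1.62, adjusted p = 0.636, 95% confidence interval -1.18 to 7.84), and it was not called, the controls themselves running from 3.91 to 8.53.

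The other probe set of Cxcl15, 1456428_at, was at 8.46 and 9.36 in the induced-labelled RNP-IPs, 8.64 and 8.02 in the uninduced-labelled ones and 3.79 in total RNA. Here the RNP-IPs of both labels overlapped. The log2 difference between them was 0.58 (SE 0.46, adjusted p = 0.721, 95% confidence interval -0.91 to 2.07), so that the 3.76-fold difference on the first probe set was not called on this one. Whether the probe sets differ from each other was not tested. In each pair of RNP-IPs, on both probe sets, the one with the lower Gapdh 5' signal had the higher Cxcl15 signal.

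Against total RNA, both probe sets of Cxcl15 were called higher in the RNP-IPs of either label, with adjusted p = 0.103 and 0.135 in the induced-labelled ones and 0.194 and 0.236 in the uninduced-labelled ones. Total RNA was near background, so only bounds can be given for the folds. With total RNA raised to log2 5, Cxcl15 was at least 34-fold and 15.0-fold higher in the induced-labelled RNP-IPs (1421404_at first), and at least 9.06-fold and 10.1-fold higher in the uninduced-labelled ones. Where all values under log2 5 were set to 5 before the fit, the calls in the uninduced-labelled RNP-IPs ended (adjusted p = 0.612 and 0.828). With all 4 RNP-IPs as 1 group, a comparison chosen after the values were seen, the bounds were 17.6-fold and 12.3-fold (adjusted p = 0.281 and 0.13).

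Ccl2, which encodes the monocyte chemoattractant MCP-1, had the opposite order. It was at 6.19 and 6.40 in the induced-labelled RNP-IPs, 5.85 and 5.73 in the uninduced-labelled ones and 8.51 in total RNA. All 4 RNP-IPs lay below total RNA, as for 17.9% of all probe sets. Compared with total RNA it fell by 2.72 on the log2 scale in the uninduced-labelled RNP-IPs (SE 0.14, adjusted p = 0.156), a 6.58-fold difference that ranked 35 of 45101 from the bottom. In the induced-labelled ones it fell by 2.21 (SE 0.14, adjusted p = 0.103), 4.64-fold, which ranked 616 from the bottom. Both induced-labelled RNP-IPs lay above both uninduced-labelled ones, as did 15.5% of all probe sets, but the log2 difference of 0.50 (SE 0.11, adjusted p = 0.314, a fold of 1.42) did not reach the fold called. Against the 3 controls together the sign was the other way, at -0.40 (SE 1.02, adjusted p = 0.904), with total RNA among the controls.

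Ccl7 encodes MCP-3, another monocyte chemoattractant, and is the next protein-coding gene to Ccl2 in the RefSeq gene table of GRCm38.p6. It was at 4.33 and 4.04 in the induced-labelled RNP-IPs, 4.23 and 4.19 in the uninduced-labelled ones and 5.90 in total RNA. All 4 RNP-IPs were near background and below total RNA. Compared with total RNA the measured log2 difference was -1.69 in the uninduced-labelled RNP-IPs (SE 0.16, adjusted p = 0.195) and -1.72 in the induced-labelled ones (SE 0.16, adjusted p = 0.123). With the RNP-IPs raised to log2 5, these are folds of at least 1.87, below the fold of 3 used for calls. Without induced-labelled RNP-IP 2 the difference in the induced-labelled RNP-IPs was -1.57, and its call ended. Between the RNP-IPs themselves both sides are near background, and no fold is given.

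Ccl5 (RANTES), a CC chemokine for T cells and monocytes, was at 4.39 and 4.31 in the induced-labelled RNP-IPs, 4.56 and 4.11 in the uninduced-labelled ones and 4.31 in total RNA. Cxcl10 (IP-10), an interferon-inducible CXC chemokine for activated T cells, was at 3.36 and 3.46 in the induced-labelled RNP-IPs, 3.46 in both uninduced-labelled ones and 3.51 in total RNA. Neither was above background in any array, so a difference was not detectable. The number and background of these arrays do not allow either mRNA to be called absent.

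Cxcl1 (KC) attracts neutrophils through Cxcr2 and is induced by serum and platelet-derived growth factor in fibroblasts. On its brightest probe set, 1457644_s_at, it was at 10.89 and 11.21 in the induced-labelled RNP-IPs, 10.65 and 10.34 in the uninduced-labelled ones and 10.92 in total RNA. On 1419209_at it was at 8.65 and 9.05 in the induced-labelled RNP-IPs, 8.13 and 8.11 in the uninduced-labelled ones and 8.54 in total RNA. On all 3 probe sets both induced-labelled RNP-IPs lay above both uninduced-labelled ones, as did 15.5% of all probe sets. Total RNA lay between the lowest and the highest RNP-IP on each of them.

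The log2 differences of Cxcl1 between the labels were 0.56 on 1457644_s_at (SE 0.19, adjusted p = 0.482), 0.45 on 1441855_x_at (SE 0.20, adjusted p = 0.607) and 0.73 on 1419209_at (SE 0.17, adjusted p = 0.337), or folds of 1.47, 1.37 and 1.66. None was called, and the upper ends of the 95% confidence intervals were 1.18, 1.11 and 1.29, below 3-fold. The probe sets share a target, and the letters x and s in their names mark probes that can also match other transcripts, so the 3 are not separate evidence. On 1419209_at the difference was 0.54 between the RNP-IPs with the high Gapdh 5' signal and 0.92 between those with the low one. Against total RNA the 6 differences of Cxcl1 ran from -0.45 to 0.31.

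Cxcl5 (LIX), a further neutrophil chemoattractant, was at 8.74 and 9.39 in the induced-labelled RNP-IPs, 9.49 and 9.05 in the uninduced-labelled ones and 10.04 in total RNA. The RNP-IPs of both labels overlapped, and all 4 lay below total RNA. The log2 difference between the labels was -0.21 (SE 0.33, adjusted p = 0.811, 95% confidence interval -1.28 to 0.87). Compared with total RNA it was -0.78 in the uninduced-labelled RNP-IPs (SE 0.40, adjusted p = 0.676) and -0.98 in the induced-labelled ones (SE 0.40, adjusted p = 0.473), or 1.71-fold and 1.97-fold lower in value, neither of which was called.

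Cxcl12 (SDF-1), which holds stem cells and lymphocytes in their niches through Cxcr4, was well above background in all arrays on 2 of its 3 probe sets. The first, 1448823_at, was at 10.85 and 10.86 in the induced-labelled RNP-IPs, 10.86 and 10.87 in the uninduced-labelled ones and 10.46 in total RNA. The difference between the labels was -0.01 (SE 0.04, 95% confidence interval -0.15 to 0.13, adjusted p = 0.956). The standard deviation was 0.001 in the induced-labelled RNP-IPs and 0.013 in the uninduced-labelled ones. Whether values this close describe the spread of such precipitates was not tested. On 1417574_at it was at 9.31 in both induced-labelled RNP-IPs, 9.71 and 10.10 in the uninduced-labelled ones and 8.91 in total RNA. On this probe set both induced-labelled RNP-IPs lay below both uninduced-labelled ones, as for 15.8% of all probe sets, with a log2 difference of -0.60 (SE 0.17, adjusted p = 0.4), 1.51-fold. The probe sets thus gave unlike values for this pair of labels, and this was not tested.

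On both of these probe sets all 4 RNP-IPs lay above total RNA, a pattern of 21.1% of all probe sets. The log2 differences from total RNA were 0.40 in the induced-labelled RNP-IPs (SE 0.05, adjusted p = 0.154) and 0.41 in the uninduced-labelled ones (SE 0.05, adjusted p = 0.236) on 1448823_at. They were 0.40 (SE 0.21, adjusted p = 0.579) and 0.99 (SE 0.21, adjusted p = 0.341) in the same order of labels on 1417574_at. These are at most 1.99-fold, and none was called. The last probe set, 1439084_at, stayed between 3.94 and 3.95 in all arrays, near background.

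Cx3cl1 (fractalkine), the CX3C chemokine, is made as a membrane protein and shed by Adam10 and Adam17. On 1415803_at it was at 4.54 and 4.69 in the induced-labelled RNP-IPs, 4.72 in both uninduced-labelled ones and 5.57 in total RNA, so that total RNA alone was above log2 5. The measured log2 difference from total RNA was -0.95 in the induced-labelled RNP-IPs (SE 0.09, adjusted p = 0.124) and -0.85 in the uninduced-labelled ones (SE 0.09, adjusted p = 0.209), which is a fold of at least 1.48 with values under log2 5 raised to it. The other 3 probe sets of Cx3cl1 were between 3.33 and 3.71 in all arrays.

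Of all 17 probe sets, those near background included, 6 were above total RNA in all 4 RNP-IPs, beside 21.1% of all probe sets. A further 6 were below it in all of them, beside 17.9%. Of the 11 that reach log2 5 in an array, 4 were above (Cxcl12 and Cxcl15) and 4 below (Cx3cl1, Cxcl5, Ccl2 and Ccl7). The 2 shares given are over all probe sets, 65.1% of which are under log2 5 in every array. No share was taken for those that reach log2 5, so the counts of the 11 have none to be set against. In 7 of the 11 that reach log2 5 in an array (Ccl2, Cxcl5, all of Cxcl1 and Cxcl15) the RNP-IP with the lower Gapdh 5' signal was the higher one in both pairs, as in 34.5% of all probe sets that reach log2 5. The part of cDNA length in these values was not tested.

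Cxcl15 lies between other CXC chemokine genes, in the order Cxcl5, Ppbp, Pf4, Cxcl3, Cxcl15, Cxcl1 and Cxcl2 in the RefSeq gene table. Pf4, the platelet chemokine CXCL4, was at 6.77 and 6.98 in the induced-labelled RNP-IPs, 4.98 and 4.47 in the uninduced-labelled ones and 4.71 in total RNA. Both induced-labelled RNP-IPs lay above the 3 controls, which were all near background. Ppbp, the precursor of the neutrophil-activating peptide NAP-2, was at 6.12 and 5.92 in the induced-labelled RNP-IPs, 5.28 and 4.12 in the uninduced-labelled ones and 4.27 in total RNA. Cxcl2 and Cxcl3, close relatives of Cxcl1, were between 2.75 and 3.25 in every array. Of the 7 neighbours, Cxcl15, Pf4 and Ppbp were thus near background in total RNA and had their highest signals in the induced-labelled RNP-IPs. Cxcl1 and Cxcl5 were well above background in total RNA. Cxcl1 too was higher in both induced-labelled RNP-IPs (10.89 and 11.21) than in both uninduced-labelled ones (10.65 and 10.34), with total RNA at 10.92. This order of the labels was seen on 15.5% of all probe sets. On the other probe set of Cxcl15 the labels overlapped.

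**Figure D3:**
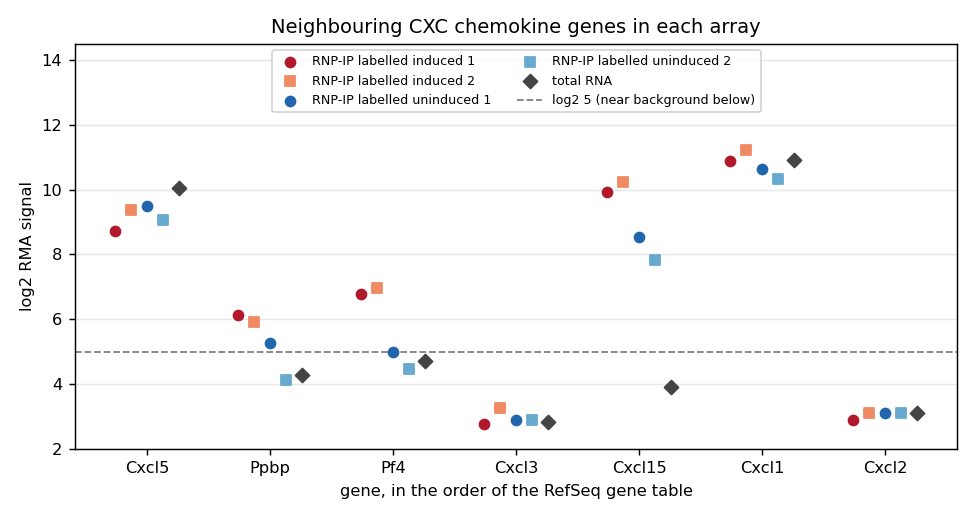
Log2 RMA signal (vertical axis) of the 7 neighbouring CXC chemokine genes (horizontal axis, in the order of the RefSeq gene table), on the probe set with the highest mean, each marker 1 array. Cxcl15 is at 3.91 in total RNA and 7.83 to 10.24 in the RNP-IPs, and Cxcl2 and Cxcl3 stay under 3.3 in all arrays.

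Among 25 other chemokine ligands measured, 5 reached log2 5 in an array, and 2 of the 25 were called higher and 0 lower in the induced-labelled RNP-IPs against the 3 controls, where 3.68% of all genes were called, 1.32% higher and 2.36% lower. They were Pf4 (adjusted p = 0.0927), at least 3.67-fold higher with the controls raised to log2 5, and Ccl25. Ccl25 (TECK), which guides T cells of thymus and gut, was at 7.53 and 7.61 in the induced-labelled RNP-IPs, 5.87 and 6.26 in the uninduced-labelled ones and 5.61 in total RNA. Its log2 difference was 1.65 (SE 0.22, adjusted p = 0.135), and 1.5 against the uninduced-labelled RNP-IPs alone, where it was not called. Over all genes 4.03% were called against the uninduced-labelled RNP-IPs alone (1.38% higher and 2.65% lower), and in comparison with total RNA 2.62% in the uninduced-labelled RNP-IPs (1.26% higher and 1.36% lower) and 6.53% in the induced-labelled ones (2.03% higher and 4.5% lower). Of the 25 ligands, in the same order of comparisons, 2 were called higher (Pf4 and Ccl9), 1 lower (Ccl9) and 3 higher (Pf4, Ccl25 and Ppbp). Raising the lower group to log2 5 left Ccl9 at least 2.0-fold higher between the labels and 2.91-fold lower against total RNA, and Ppbp at least 2.03-fold higher, all under the fold of 3. The median log2 difference of the 25 against the 3 controls was 0.13, beside 0.002 over all genes and -0.07 over the 9 chemokine genes. Ccl9, a CC chemokine of macrophages, was lowest in the uninduced-labelled RNP-IPs, at 5.58 and 6.42 in the induced-labelled ones, 4.66 and 3.98 in the uninduced-labelled ones and 6.54 in total RNA. Ccl17, which neighbours Cx3cl1, was at 5.14 and 5.08 in the induced-labelled RNP-IPs, 5.69 and 4.96 in the uninduced-labelled ones and 5.14 in total RNA.

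Of 21 chemokine receptors measured, 2 reached log2 5, and 0 were called in any of the 4 comparisons, with a median log2 difference of 0.08 against the 3 controls. Ackr3, which scavenges Cxcl12, was the receptor above log2 6 in every array, at 7.21 and 7.95 in the induced-labelled RNP-IPs, 8.73 and 8.10 in the uninduced-labelled ones and 7.61 in total RNA. Ccr2, the receptor of Ccl2 and Ccl7, was at 5.97 and 5.29 in the induced-labelled RNP-IPs, 5.29 and 5.21 in the uninduced-labelled ones and 5.18 in total RNA. The other 19 receptors were near background in all arrays.

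Of 30 genes that act in the induction of chemokines by NF-kB, Toll-like receptor, interleukin 1, TNF and interferon signals, 0 were called against the 3 controls (median 0.05). Nfkbia, the NF-kB inhibitor IkB-alpha, was at 12.56 and 12.79 in the induced-labelled RNP-IPs, 12.30 and 11.96 in the uninduced-labelled ones and 12.18 in total RNA. Tlr4, the receptor of lipopolysaccharide, ran from 8.06 to 9.17 and the TNF receptor Tnfrsf1a from 7.83 to 8.77 over the 5 arrays, with the RNP-IPs of both labels overlapping. Irak1, a kinase of interleukin 1 and Toll-like receptor signals, ran from 7.24 to 8.95. Against total RNA the NF-kB subunit Rela was lower in the RNP-IPs of both labels, with log2 differences of -2.21 in the induced-labelled ones (SE 0.64, adjusted p = 0.34) and -2.61 in the uninduced-labelled ones (SE 0.64, adjusted p = 0.387). Irf9, the DNA-binding part of the interferon factor ISGF3, was higher than total RNA in the induced-labelled RNP-IPs (adjusted p = 0.213), at 5.01 and 5.57 against 3.39, which is at least 1.22-fold with total RNA raised to log2 5. Rela and Irf9 were the only genes of the 30 called in these other comparisons, and both, like Ppbp above, were named after their values were seen.

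Of 16 genes for the presentation and processing of chemokines, 0 were called against the 3 controls, with a median log2 difference of -0.35. Adam10 was at 9.78 and 11.15 in the induced-labelled RNP-IPs, 11.56 and 11.18 in the uninduced-labelled ones and 10.91 in total RNA, and Adam17 at 6.20 and 6.28 in the induced-labelled ones, 6.94 and 7.73 in the uninduced-labelled ones and 7.41 in total RNA. For Adam17 both induced-labelled RNP-IPs lay below the 3 controls, by a log2 difference of -1.12 (SE 0.26, adjusted p = 0.274) that was under 3-fold and not called. Hs2st1, a heparan sulfate sulfotransferase, ran from 8.83 to 10.33, Mmp2, a gelatinase that cleaves Ccl7, from 8.80 to 9.77 and the proteoglycan Sdc2 from 8.49 to 9.51 over the 5 arrays. Ext1, a polymerase of heparan sulfate, was at 10.04 and 9.62 in the induced-labelled RNP-IPs, 5.85 and 7.25 in the uninduced-labelled ones and 8.95 in total RNA. It was called higher against the uninduced-labelled RNP-IPs alone (log2 3.28, SE 0.61, adjusted p = 0.267) and not against the 3 controls (2.48, SE 1.02, adjusted p = 0.544). Ext1 was lower than total RNA in the uninduced-labelled RNP-IPs (-2.40, SE 0.75, adjusted p = 0.466), as was the glypican Gpc1 (adjusted p = 0.291), which was also lower in the induced-labelled ones (adjusted p = 0.226). With values of Gpc1 under log2 5 raised to it, this is at least 2.9-fold and 2.88-fold in the same order, under the fold of 3. No other gene of the 16 was called, and Adam17, Ext1 and Gpc1 were named after their values were seen.

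Ccl2 and Cxcl15 were the chemokine genes above log2 6 in an array whose values spanned at least 3-fold, and the genes with the most similar values were sought for them among 7482 genes above log2 6 in an array, by Euclidean distance over the 5 arrays after centring each gene on its mean. Nearest to Ccl2 was Tfrc, the transferrin receptor, at a distance of 0.27, with 7.61 in both induced-labelled RNP-IPs, 7.23 and 7.27 in the uninduced-labelled ones and 10.03 in total RNA. Rasgrp3, an exchange factor of Ras, followed at 0.31 and a probe set of Rpl12, a ribosomal protein, at 0.37. In the RNP-IPs Rpl12 was near background, at 4.2 to 4.9, and Rasgrp3 was at 4.4 to 5.1. The nearest to Cxcl15 were farther off. Nmrk1, a nicotinamide riboside kinase, was at a distance of 1.52, with 7.96 and 8.45 in the induced-labelled RNP-IPs, 6.40 and 5.50 in the uninduced-labelled ones and 3.50 in total RNA. Vip, the vasoactive intestinal peptide, was at 1.88 and Igdcc4, of the immunoglobulin superfamily, at 2.0. With 5 arrays this likeness is a description only.

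**Figure D4:**
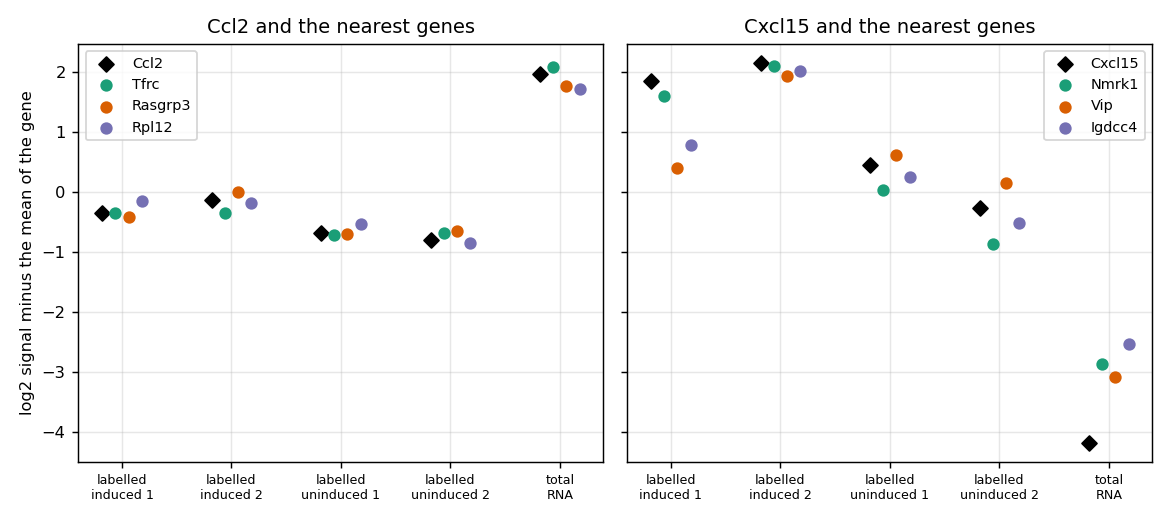
Log2 signal minus the mean of the gene over the 5 arrays (vertical axis) for Ccl2 and for Cxcl15 (diamonds) with their 3 nearest genes each (circles), by array (horizontal axis). Ccl2 and its nearest genes are high in total RNA alone, and Cxcl15 is lowest in total RNA, at 3.91 before centring.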

How the data were processed

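RNA of 5 samples was amplified by two-cycle labelling and measured on Affymetrix mouse arrays (Mouse 430 2.0). The log2 values deposited by the authors had been normalized by RMA, with no version stated. They run from 2.32 to 14.86 and were used as deposited. Gene names came from the platform annotation, in which 34958 probe sets have 1 gene, 932 several and 9211 none. For a gene with several probe sets the one of highest mean stood for it in counts of genes, while every probe set of the chemokine genes is given. Limma 3.58.1 (R 4.3.3, lmFit and eBayes) was fitted to all probe sets, and p-values were adjusted over all 45101 probe sets. The comparison with the 3 controls had 2 groups (3 residual degrees of freedom), and the others had 3 groups (2 residual degrees of freedom). In the study the list of enriched mRNAs is said to be made against the 3 controls. Its printed folds are described as RNP-IPs with myc-AUF1 p42 against RNP-IPs without it. The fits were tested on simulated data.

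The arrays' number limits the precision. For bounds, values under log2 5 were set to 5. In each gene list the genes called against the 3 controls and up to 4 with the highest mean were named. The chemokine genes and the lists were chosen with earlier results of these data known. Listed genes without a probe set of their own in this annotation (2 ligands, 2 receptors, 4 inducers, 1 for presentation) were not analysed here, nor were 3'UTR and protein sequences. Alternatives were other normalizations, filters, floors, left-out arrays and replicate blocks. A possible pairing by replicate number was checked by the correlation of their deviations from the group means.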

Additional observations from a re-analysis of the deposited data

How the results depend on the processing

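The number of chemokine probe sets called against the 3 controls, 0, was 1 among the 15034 brightest probe sets, 1 against the uninduced-labelled RNP-IPs alone, 1 with the crossed replicate block and 2 with values under log2 5 set to 5 (all Cxcl15), and 0 without each RNP-IP in turn. It was also 0 of 9 genes where each was represented by its largest fold. The 1 called between the labels ranged from 0 to 1 without each RNP-IP, and the 4 called in the uninduced-labelled RNP-IPs against total RNA became 1 (Ccl2) with the floor of log2 5, which leaves 65.1% of probe sets without any spread by construction. The floor took away the call of Ccl7 in both comparisons with total RNA (-0.90) and those of Cxcl15 in the uninduced-labelled RNP-IPs (3.18 and 3.33). In the other gene lists, the 2 called against the 3 controls ranged from 2 to 5 without each RNP-IP (5 without uninduced-labelled RNP-IP 1), the 3 called between the labels from 3 to 5 (5 without uninduced-labelled RNP-IP 2), the 4 of the uninduced-labelled RNP-IPs against total RNA from 5 to 8 (8 without uninduced-labelled RNP-IP 2, and 0 with the floor), and the 6 of the induced-labelled ones from 3 to 4 (3 without induced-labelled RNP-IP 1). The causes were not tested.

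Deviations of RNP-IPs with the same replicate number correlated at -0.50. The Gapdh 5' signal was crossed with these numbers, so this value cannot tell if RNP-IPs of the same number were prepared together. With the replicate block 0 chemokine probe sets were called between the labels and 1 gene of the lists in place of 2 and 3. The crossed replicate block (RNP-IP 1 of a label with RNP-IP 2 of the other), chosen after seeing the data, gave 1 probe set and 3 genes.

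The signs that turned belong to values that were not called. Ccl2 (0.50) and Cxcl12 on 1448823_at (-0.008) turned against the uninduced-labelled RNP-IPs alone and in both blocks. Between the labels Cxcl12 turned with cyclic loess (0.07) and ranged from -0.017 to 0.001 without each RNP-IP, Cxcl5 ranged from -0.53 to 0.12 and Ccl7 from -0.17 to 0.12. Against total RNA the induced-labelled RNP-IPs turned for Cxcl1 on 1441855_x_at with cyclic loess (0.099) and between -0.17 and 0.16 without each RNP-IP, on 1457644_s_at between -0.039 and 0.29, and with all 4 RNP-IPs as 1 group (-0.051 on 1419209_at and -0.16 on 1457644_s_at).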
